A study of Mus musculus with 6 samples.

Results

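The 7 sirtuin genes (Sirt1 to Sirt7) and the NAD metabolism genes Nampt, Cd38 and Parp1 were compared between microglia with and without PGC-1α overexpression. These 10 genes, of 23462 genes with a named probe, were chosen by symbol, and their probes were found through the RefSeq transcript accession that the array gives for each probe. They were represented by 16 of 56605 probes. All 10 genes had at least 1 probe well above background on every array.

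The series holds 6 samples of microglia from male mice aged 10 weeks, on a C57BL/6 background per the study's methods. In 3 samples the cells came from PGC-1αf/f mice, which carry a loxP-controlled PGC-1α allele linked to eGFP and no Cre. In the other 3 the cells came from mPGC-1α mice, which carry the same allele and a tamoxifen-inducible Cre recombinase inserted into the Cx3cr1 gene. Both groups were enriched by magnetic selection for the surface receptor P2RY12, and no injury or inflammatory stimulus is named in their labels. The model is limited in that Cre acts in any cell with an active Cx3cr1 locus, and mPGC-1α mice carry an altered Cx3cr1 allele that controls lack. The study's methods describe tamoxifen given ahead of the experiments without naming it for each genotype of these array samples, and the labels do not mention it. The labels call the samples replicates without naming separate animals, so p-values measure the spread between these samples, which may be technical.

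Sirtuins are enzymes that remove acetyl and related acyl groups from proteins and consume NAD, nicotinamide adenine dinucleotide, in doing so. Sirt1, Sirt6 and Sirt7 act mainly in the nucleus, Sirt2 mainly in the cytosol, and Sirt3, Sirt4 and Sirt5 in mitochondria. Nampt catalyses the rate-limiting step of NAD salvage from nicotinamide, whereas Cd38 and Parp1 consume NAD. Cd38 cleaves it at the cell surface and on internal membranes, and Parp1 uses it to build poly(ADP-ribose) at damaged DNA. Sirt1 deacetylates PGC-1α itself, and Sirt3 is known as a gene that PGC-1α can activate together with the receptor ERRα.

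The promoters of 4 genes are shown, those of the 3 genes whose groups did not overlap and that of Sirt5, the single member with an ERR motif. Each runs 5′ to 3′ from 250 bases before to 50 after the start given by RefSeq on the build GRCm38.p6, and capitals mark a motif. The Cd38 window is chr5:43868559-43868858 on the plus strand, Nampt chr12:32820085-32820384 plus, Parp1 chr1:180568641-180568940 plus and Sirt5 chr13:43365285-43365584 plus.
Cd38: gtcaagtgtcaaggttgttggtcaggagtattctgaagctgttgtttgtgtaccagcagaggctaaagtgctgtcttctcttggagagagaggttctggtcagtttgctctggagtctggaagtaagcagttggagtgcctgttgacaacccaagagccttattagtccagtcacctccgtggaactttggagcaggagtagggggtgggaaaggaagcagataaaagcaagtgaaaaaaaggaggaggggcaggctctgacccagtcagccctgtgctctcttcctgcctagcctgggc
Nampt: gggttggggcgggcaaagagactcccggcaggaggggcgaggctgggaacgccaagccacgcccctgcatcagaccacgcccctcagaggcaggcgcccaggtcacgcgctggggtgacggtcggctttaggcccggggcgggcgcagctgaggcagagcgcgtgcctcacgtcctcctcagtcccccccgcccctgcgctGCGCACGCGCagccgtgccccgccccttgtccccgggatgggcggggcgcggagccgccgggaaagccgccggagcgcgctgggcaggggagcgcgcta
Parp1: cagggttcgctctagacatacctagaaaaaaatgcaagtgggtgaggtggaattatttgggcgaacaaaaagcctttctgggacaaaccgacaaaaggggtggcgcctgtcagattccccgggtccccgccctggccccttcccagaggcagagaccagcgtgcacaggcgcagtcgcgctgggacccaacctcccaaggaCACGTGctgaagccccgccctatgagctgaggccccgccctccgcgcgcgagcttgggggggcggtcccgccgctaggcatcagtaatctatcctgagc
Sirt5: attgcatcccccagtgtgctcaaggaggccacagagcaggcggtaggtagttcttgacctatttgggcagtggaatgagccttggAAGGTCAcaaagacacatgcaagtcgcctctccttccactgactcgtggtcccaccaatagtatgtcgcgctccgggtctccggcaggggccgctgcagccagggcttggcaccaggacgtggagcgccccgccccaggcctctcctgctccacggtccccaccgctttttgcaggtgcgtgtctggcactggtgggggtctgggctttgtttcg
Both strands of 12 promoter windows of the 10 genes (Sirt3 and Sirt6 have 2 each) were searched for 4 motifs. The ERR motif AAGGTCA was found in Sirt5 alone, at -165 from the start, and in 4.72% of 32851 windows. The NRF1 motif (GCGCA, any base, GCGC) was found in Nampt, at -49, and in 1 window of Sirt6, and in 4.6% of all windows. The E-box CACGTG was found in Parp1 and at 2 places in Sirt1, and in 7.15% of all windows. The interferon response motif (TTTC, any 2 bases, TTTC) was in none of the 12 windows and in 3.44% of all. None of the 4 motifs was found in the windows of Cd38, Sirt2, Sirt3, Sirt4 and Sirt7. The windows of Sirt1 and Nampt were rich in G and C (79% and 76.3%, against a median of 52.7% over all windows), while that of Cd38 had 51.7%.

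The arrays differed in brightness, with 75th percentiles of intensity from 1012 to 2138, and were not equally alike. Between 27025 and 30272 of 59305 spots were well above background per array, and 0 were saturated. PGC-1αf/f replicate 3 stood apart, correlating across probes at 0.928 on average with the remaining arrays, while the rest did so at 0.962 to 0.972. On mPGC-1α replicate 3 none of 4 Y-linked genes passed the background flag, against its label as male, and Xist passed it on this array and on both replicates 2. Values below are followed by those without an array where leaving it out mattered most. All 12 microglial markers examined, among them P2ry12 and Tmem119, were well above background on every array. The targeted gene Ppargc1a gave 0.19, -0.44 and -1.21 in PGC-1αf/f, against 0.57, 0.28 and 0.08 in mPGC-1α microglia, as log2 signal minus the 75th percentile of the array, the scale of all levels below. Its difference was 0.80 (SE 0.35, limma adjusted p 0.306), and 0.44 without PGC-1αf/f replicate 3. Whether its probe detects the transgene transcript was not analysed here. All controls were on row 1 of the slide and all mPGC-1α samples on row 2, so group and row cannot be told apart.

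To determine whether sirtuin and NAD genes differed with PGC-1α overexpression, each probe was tested with limma. Cd38 and Nampt were brighter and Parp1 dimmer on every mPGC-1α array than on any PGC-1αf/f array, whereas the groups overlapped for all 7 sirtuins. Cd38 stood at 2.58-fold and Nampt at 1.51-fold of the control, and Parp1 at 0.764 of it. However, 0 of the 10 genes passed an adjusted p of 0.05 by limma (smallest 0.139), where 8 of 12302 genes, 0.065%, did, as did 0 of the members' 14 probes beside 0.0792% of 25257 probes. At an unadjusted p under 0.05 there were 3 members, with 2 higher (8.16% of all genes tested) and 1 lower (5.71%), beside 13.9% in either direction. The groups did not overlap for the same 3 of 10, beside 22.9% of all genes. No test set the members' counts against these shares. The median difference over the 10 genes was 0.02, beside 0.03 over all genes tested, and over the 7 sirtuins it was 0.01. In bulk RNA of such selected cells, fewer cells of a type and less RNA per cell cannot be told apart.

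**Figure D1:**
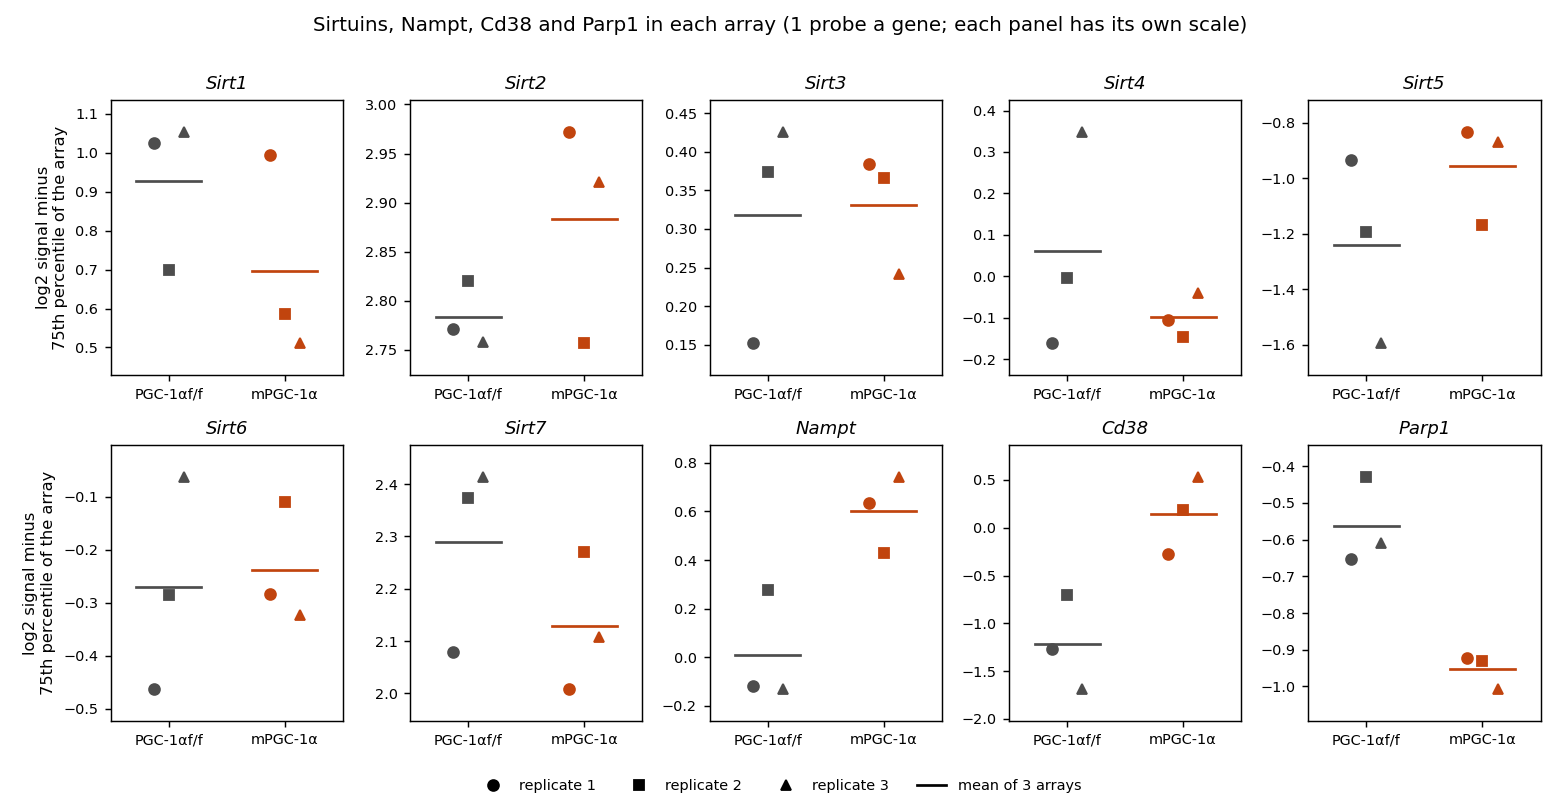
Log2 signal minus the 75th percentile of the array for the representative probe of each gene in the 3 PGC-1αf/f and 3 mPGC-1α arrays, with marker shapes for replicate numbers and a line at the group mean. The groups separate for Cd38, Nampt and Parp1 and overlap for each sirtuin; panels have their own scales and levels of different probes cannot be compared.

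The NAD-consuming ectoenzyme Cd38 was measured by 1 probe (A_66_P101835). It gave -1.27, -0.70 and -1.69 in PGC-1αf/f microglia, against -0.27, 0.18 and 0.53 in mPGC-1α microglia. The dimmest mPGC-1α array thus lay above the brightest control, and the arrays with the lowest and highest values were PGC-1αf/f replicate 3 and mPGC-1α replicate 3. The means were -1.22 ± 0.49 and 0.15 ± 0.40 (SD, n = 3 each), on background-subtracted intensities of 418 to 2119. In log2 units mPGC-1α microglia were higher by 1.37 (SE 0.30, 95% interval 0.65 to 2.08, limma adjusted p 0.139). It was 1.14 without PGC-1αf/f replicate 3 and 1.18 without mPGC-1α replicate 3, and within the slide columns that held both groups it was 1.00 in column 1 and 0.89 in column 2. Its unadjusted p was under 0.05 in 15 of 15 alternative fits (0.00103 to 0.0131), none of which brought the adjusted p under 0.05 (0.0710 to 0.369). The difference was therefore larger than the spread between the arrays of a group, yet not beyond what was adjusted for over all probes.

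The salvage enzyme Nampt was also measured by 1 probe (A_51_P387235). Its values were -0.12, 0.28 and -0.13 in PGC-1αf/f microglia, against 0.63, 0.43 and 0.74 in mPGC-1α microglia. PGC-1αf/f replicate 2 and mPGC-1α replicate 2 were the closest pair across the groups. The means were 0.01 ± 0.23 and 0.60 ± 0.16 (SD, n = 3 each), and the difference was 0.59 (SE 0.17, 95% interval 0.19 to 0.99, limma adjusted p 0.197). In slide column 1 the difference was 0.75 and in column 2 it was 0.15. With array weights, which gave most weight to both replicates 2, it was 0.35. Leaving out any 1 array left it between 0.52 and 0.73.

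Parp1, the main poly(ADP-ribose) polymerase, differed in the opposite direction (1 probe, A_51_P314277). It gave -0.65, -0.43 and -0.61 in PGC-1αf/f microglia, against -0.92, -0.93 and -1.01 in mPGC-1α microglia. The 3 mPGC-1α arrays lay close together and all below the controls. The means were -0.56 ± 0.12 and -0.95 ± 0.05 (SD, n = 3 each), and the difference was -0.39 (SE 0.13, 95% interval -0.69 to -0.09, limma adjusted p 0.234). It was -0.27 in slide column 1 and -0.50 in column 2. Its unadjusted p was under 0.05 in 10 of 15 alternative fits and reached 0.0845 without PGC-1αf/f replicate 2 and 0.324 on values without normalization. In the fit without normalization every member had the same SE, 0.428.

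**Figure D2:**
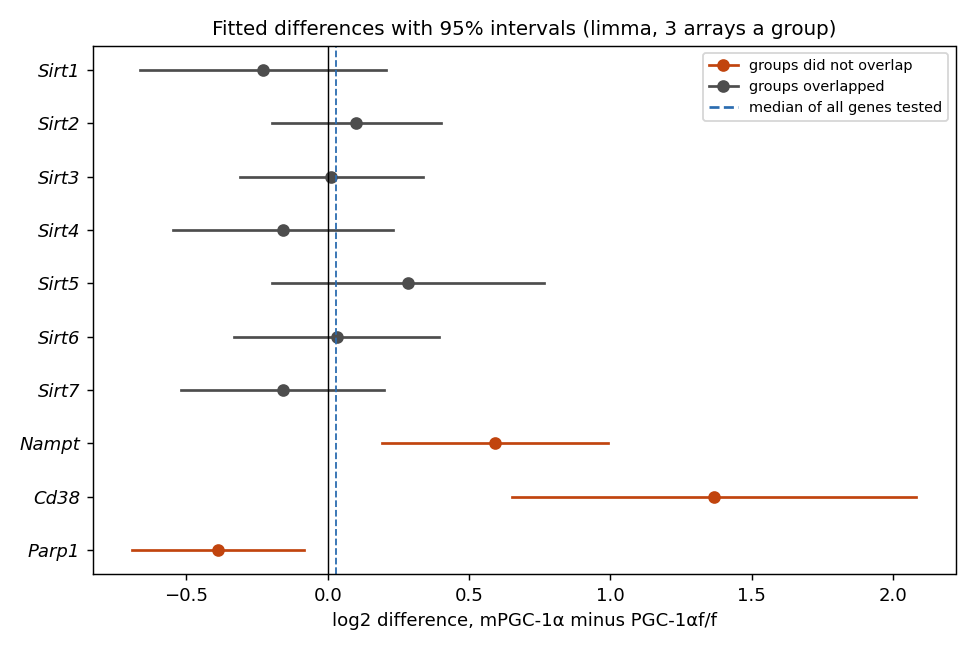
Fitted log2 differences (mPGC-1α minus PGC-1αf/f) of the 10 genes, as points with 95% intervals from limma over 3 arrays a group, with the median of all genes tested as a dashed line. The intervals of Cd38, Nampt and Parp1 leave out 0 before adjustment over all probes, while those of the 7 sirtuins include it.

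Next, the nuclear sirtuins were examined. Sirt1, which deacetylates histones and transcription factors, gave 1.03, 0.70 and 1.05 in PGC-1αf/f microglia, against 0.99, 0.59 and 0.51 in mPGC-1α microglia. mPGC-1α replicate 1 lay above the dimmest control, so the groups overlapped, and the difference was -0.23 (SE 0.18, 95% interval -0.66 to 0.21, limma adjusted p 0.540). This ran from -0.38 without mPGC-1α replicate 1 to -0.14 without mPGC-1α replicate 3. Sirt7, a nucleolar sirtuin linked to ribosomal RNA synthesis, gave 2.08, 2.37 and 2.41 against 2.01, 2.27 and 2.11, and differed by -0.16 (95% interval -0.52 to 0.20, limma adjusted p 0.608). The difference was -0.26 without PGC-1αf/f replicate 1, -0.10 without PGC-1αf/f replicate 3 and -0.10 without mPGC-1α replicate 1. Its second, dimmer probe differed by -0.27, with mPGC-1α replicate 3 at -1.84 and the other 5 arrays between -1.15 and -0.75. Sirt6, known for its role in DNA repair and telomere maintenance, gave -0.46, -0.29 and -0.06 against -0.28, -0.11 and -0.32, and differed by 0.03 (95% interval -0.33 to 0.39, limma adjusted p 0.931). Leaving out 1 array also gave both signs, with -0.06 when PGC-1αf/f replicate 1 was omitted and 0.14 when replicate 3 of the same group was. The further probes of Sirt1 and Sirt6 were near background on all 6 arrays and were not tested.

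The cytosolic sirtuin Sirt2, a tubulin deacetylase that is abundant in myelin-forming cells, was steady across the controls. Its brighter probe gave 2.77, 2.82 and 2.76 in PGC-1αf/f microglia, against 2.97, 2.76 and 2.92 in mPGC-1α microglia. The difference was 0.10 (SE 0.13, 95% interval -0.20 to 0.40, limma adjusted p 0.703), and the second probe also differed by 0.10. It was 0.06 without mPGC-1α replicate 1 and 0.16 without mPGC-1α replicate 2. The lowest value of all was on mPGC-1α replicate 2, so the groups overlapped. Under 3 other scalings the sign of the brighter probe turned, with values from -0.08 to -0.01.

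Among mitochondrial sirtuins, Sirt3, the main mitochondrial deacetylase, gave 0.15, 0.37 and 0.43 in PGC-1αf/f microglia, against 0.38, 0.37 and 0.24 in mPGC-1α microglia. Every mPGC-1α value lay inside the control range, and the difference was 0.01 (SE 0.14, 95% interval -0.31 to 0.34, limma adjusted p 0.968). Leaving out 1 array gave differences on both sides of 0, with -0.07 when PGC-1αf/f replicate 1 was omitted and 0.07 when replicate 3 of the same group was. Sirt5, which removes succinyl and malonyl groups, gave -0.93, -1.19 and -1.60 against -0.83, -1.17 and -0.87, a difference of 0.28 (SE 0.20, 95% interval -0.20 to 0.76, limma adjusted p 0.492). PGC-1αf/f replicate 3 was the lowest array, and without it the difference was 0.11, whereas without PGC-1αf/f replicate 1 it was 0.44. Sirt4, which inhibits glutamate dehydrogenase, had 3 tested probes that did not share a sign. The brightest gave -0.16, -0.00399 and 0.35 against -0.10, -0.15 and -0.04. The 3 probes differed by -0.16 (95% interval -0.55 to 0.23), 0.07 and -0.04 (limma adjusted p 0.640, 0.847 and 0.898), and the first was at -0.27 without PGC-1αf/f replicate 1 and at -0.01 without PGC-1αf/f replicate 3. For none of the 7 sirtuins did a p that missed the threshold show equal expression, and the intervals above give what 3 arrays a group could resolve.

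**Figure D3:**
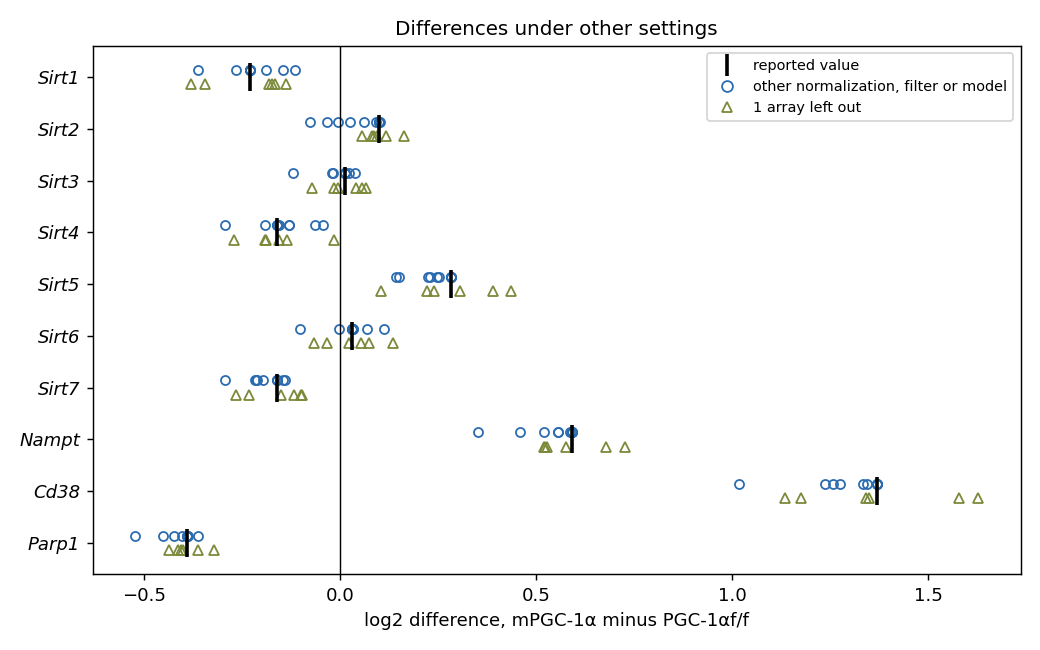
Log2 differences (mPGC-1α minus PGC-1αf/f) of the 10 genes as reported (black bars), under 10 other normalizations, filters or models (circles) and with 1 of the 6 arrays left out (triangles). Cd38 and Nampt stay above 0 and Parp1 below 0 throughout, while Sirt2, Sirt3 and Sirt6 lie on both sides of 0.

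Moreover, the wider NAD pathway was described by 4 lists of genes, none of which held a gene past an adjusted p of 0.05 by limma. A gene that passed the filter through 1 group alone is more likely to differ, so the counts of these lists cover genes that had a value on all 6 arrays and were well above background on each, 11565 of all genes. Of 16 genes of NAD synthesis 10 were so measured, and 9 of them had differences above 0, beside 52.6% of all such genes. The median was 0.17 beside 0.02. The largest difference, 0.53, was that of Acmsd, whose groups overlapped. The direction in which each enzyme acts on NAD was not weighed in this count. In this list 1 gene was higher at an unadjusted p under 0.05 (beside 6.86% of all such genes), namely Nmnat1, a nuclear enzyme of the last step of NAD synthesis. It gave -1.08, -1.08 and -0.89 in PGC-1αf/f, against -0.73, -0.68 and -0.70 in mPGC-1α microglia, so the groups did not overlap. The difference was 0.31 (SE 0.13, limma adjusted p 0.285). Kynu, Ido1, Ido2 and Tdo2 of the kynurenine route and Nmrk2 were at background on all 6 arrays.

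Of 17 genes of NAD use and phosphorylation, 10 met both conditions, with 6 differences above 0, a median of 0.12 and 1 gene higher at an unadjusted p under 0.05, again beside 6.86%. That gene, Macrod1, which removes ADP-ribose from proteins, differed by 0.69 (SE 0.24, limma adjusted p 0.251) without overlap of the groups. Its values were 0.69, 0.38 and -0.13 against 1.29, 0.95 and 0.78. Nudt5, which hydrolyses ADP-ribose, had 2 probes well above background on all arrays whose groups did not overlap either, with differences of 0.15 (SE 0.12, limma adjusted p 0.558) for the brighter and 0.34 (limma adjusted p 0.339) for the dimmer. A dimmer probe still, at 0.56 (limma adjusted p 0.148), was near background on 1 PGC-1αf/f array and entered the test through the mPGC-1α arrays. Outside these counts was Bst1, an NAD-cleaving ectoenzyme related to Cd38 and its direct neighbour among protein-coding genes, named after its values were seen. Bst1 gave -1.81, -0.65 and -4.39 in PGC-1αf/f microglia, against -0.64, 0.15 and 0.12 in mPGC-1α microglia. On PGC-1αf/f replicate 3 it was not well above background, so it entered the test through the mPGC-1α arrays, where it was brighter. The fitted difference was 2.16 (SE 0.87, limma adjusted p 0.285), and 1.11 without that array. The gap between the nearest arrays of the 2 groups was thus small, between -0.65 and -0.64.

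Of 15 further members of the PARP family, all met both conditions, with 6 differences above 0 and 9 below and a median of -0.05. Parp3, which acts in the repair of DNA breaks, was the 1 gene lower at an unadjusted p under 0.05, beside 5.63% of all such genes. It differed by -0.42 (SE 0.15, limma adjusted p 0.262), whereas a second probe well above background on all arrays differed by 0.01, so its probes disagreed.

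Of 30 regulators and substrates of sirtuins, 25 met both conditions, with 15 differences above 0 and a median of 0.03. Among the 15 was the targeted gene Ppargc1a itself, at 0.80. Before adjustment, 2 passed a p of 0.05 upward and 1 downward, beside 6.86% and 5.63% of all such genes, and no test set these counts against those shares. Nr1h3, which encodes the sterol receptor LXRα and is a Sirt1 substrate, differed by 0.86 (SE 0.32, limma adjusted p 0.268), and by 0.49 without PGC-1αf/f replicate 3. Its second probe differed by 0.44. Foxo1, a transcription factor deacetylated by Sirt1 and Sirt2, differed by -0.37 (SE 0.14, limma adjusted p 0.263), and its second probe by -0.24. For both genes the groups did not overlap at either probe. Pdha1, a subunit of pyruvate dehydrogenase, differed by 0.31 (SE 0.15, limma adjusted p 0.343), and by 0.21 without mPGC-1α replicate 3. Prkaa2, a catalytic subunit of AMP-activated kinase, named after its values were seen, differed by 0.96 (limma adjusted p 0.298) with overlapping groups.

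**Figure D4:**
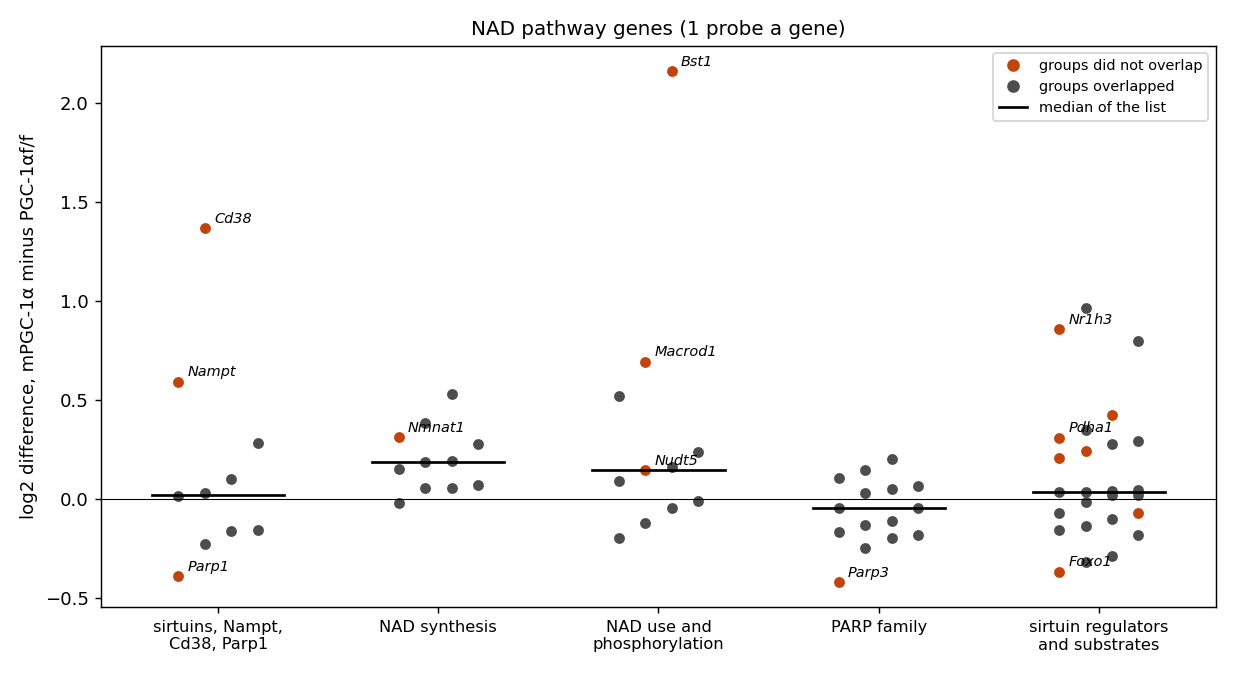
Log2 differences (mPGC-1α minus PGC-1αf/f) of single genes in 5 lists, 1 probe a gene, with a line at each list's median over all its tested genes; orange points mark genes whose groups did not overlap. Most genes lie near 0, and Cd38 and Bst1 are the points farthest above it.

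Markers of other cell types varied across the same arrays. The neutrophil list had 9 of 12 genes with a value well above background on every array, 8 with differences above 0 and 0 at an unadjusted p under 0.05 by limma (0 past an adjusted p of 0.05). Its summed signal over 11 tested genes was taken in multiples of the 75th percentile of each array. It ran from 30.7 to 149 in PGC-1αf/f, against 151 to 178 in mPGC-1α microglia. The sum includes Mmp9 and Cxcr2, which entered the test through the mPGC-1α arrays. The value of 30.7 belonged to PGC-1αf/f replicate 3, the array with the lowest Cd38 and Bst1 signals. The lymphocyte sum over 10 of 15 genes ran from 9.15 to 15.2 and from 12.8 to 22.4, and was highest on mPGC-1α replicate 3, as was Cd38. Among lymphocyte markers, Cd79a and Klrb1c were at background on all 6 arrays. The part of these cells in the signals of Cd38, Bst1 and Nampt was not tested.

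Most oligodendrocyte markers differed in the other direction. The sum over 10 of 12 genes ran from 18.4 to 23.9 in PGC-1αf/f, against 12.99 to 15.2 in mPGC-1α microglia. It includes Mog and Opalin, which entered the test through the PGC-1αf/f arrays, where they were brighter. Of the 8 genes with a value well above background on every array, 7 differences were below 0, while Ermn differed by 0.46. At an unadjusted p under 0.05 by limma 4 were lower, beside 5.63% of all such genes, and 0 passed an adjusted p of 0.05. Sirt2, known from these cells, differed by 0.10 on the same arrays. The microglial sum, over the 6 of 12 genes with a value on every array, ran from 89.7 to 103 and from 78.0 to 86.1. It includes Cx3cr1, the locus that carries Cre, an allele altered in mPGC-1α mice alone. A sum without Cx3cr1 was not tested. Within these 6, the groups overlapped for all genes but Cx3cr1 and Olfml3. Cx3cr1 differed by -0.51 (SE 0.14, limma adjusted p 0.194), and its second probe, with values on 2 arrays a group, by -0.85. Border macrophage markers, 8 of 9 measured, summed to 8.65 to 10.4 and 9.27 to 16.6. Endothelial and mural markers, 8 of 12, summed to 4.43 to 16.1 and 15.7 to 20.9, and the groups overlapped for both lists. The neutrophil, lymphocyte, border macrophage and endothelial sums were each lowest on PGC-1αf/f replicate 3 and highest on mPGC-1α replicate 3, as was Cd38. Lymphocyte sums overlapped between groups too, as did astrocyte sums (18.5 to 24.3 and 20.7 to 33.3). So did those of neuron (14.7 to 19.0 and 16.8 to 19.3) and erythroid markers (4.90 to 20.7 and 11.3 to 20.5). The part of these cell types in the members' values was not tested.

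**Figure D5:**
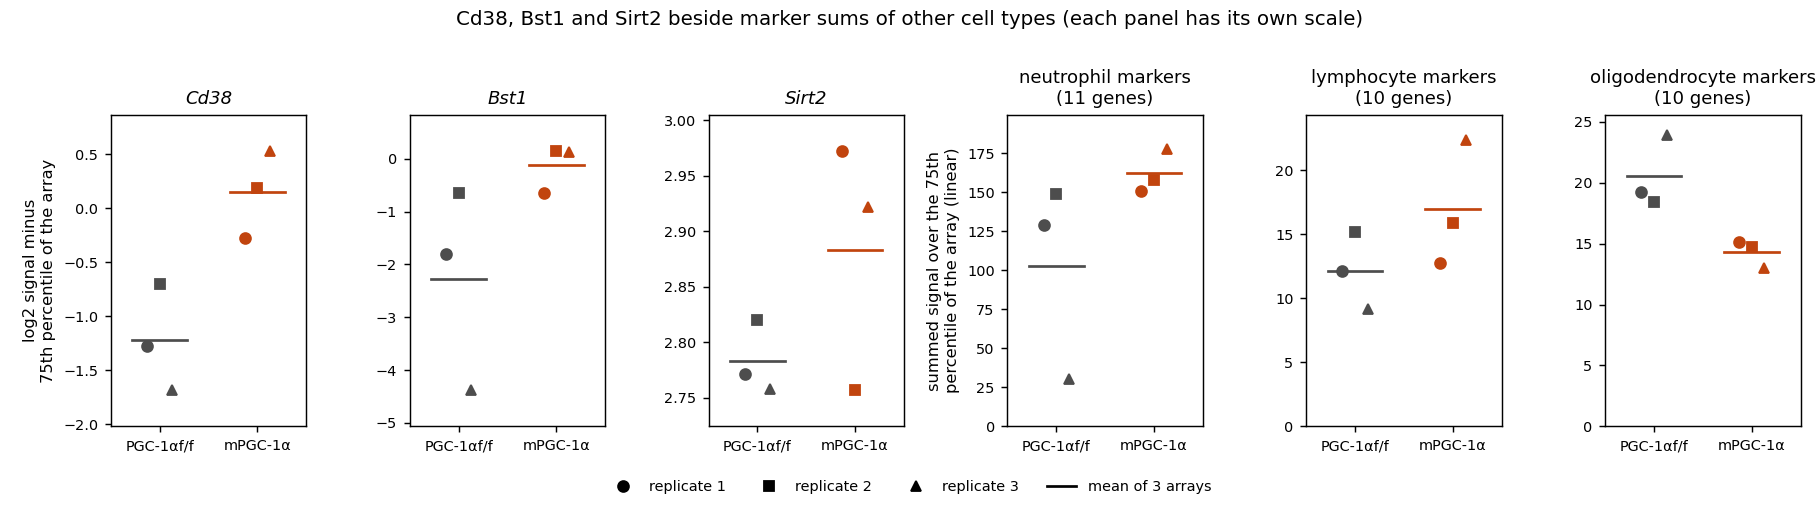
Log2 signal minus the 75th percentile of the array for Cd38, Bst1 and Sirt2, beside the summed linear signal of neutrophil, lymphocyte and oligodendrocyte markers, in the 3 PGC-1αf/f and 3 mPGC-1α arrays, with a line at each mean. PGC-1αf/f replicate 3 is lowest for Cd38, Bst1 and the neutrophil sum (30.7), and the oligodendrocyte sum is lower on the mPGC-1α arrays while Sirt2 overlaps.

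Finally, genes with the most similar profile were listed for the 3 members that varied most over the 6 arrays, as a description across arrays of which some stood apart. Out of 11564 genes, Dedd2, Marveld1 and Slc2a6 were most like Cd38, with Pearson correlations of 0.998, 0.997 and 0.996. Mpv17l2 and Alyref were among those most like Nampt (0.992 and 0.988), and Esf1, Mpp7 and Unc80 most like Sirt5 (0.998, 0.996 and 0.995). With 6 arrays such values are common, since 370, 183 and 772 genes reached 0.9 with Cd38, Nampt and Sirt5.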

How the data were processed

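Total RNA of each sample was amplified by the authors, labelled with Cy5 and hybridized to a 1-colour Agilent mouse array. The deposited scanner files hold, per spot, the intensity after background subtraction and spatial detrending by Feature Extraction 11.5.1.1, with flags for outlier, saturated and well-above-background spots. The deposited series table holds the same intensity values to within 0.6 percent (column medians 63.1 to 108), without normalization between arrays. Normalization in GeneSpring is named in the methods of the study, with no gene-level test stated for arrays.

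Control and outlier spots were left out. Log2 intensity was reduced by the 75th percentile of each array, and spots of a probe were averaged. A probe entered the test if well above background on each of the 3 arrays in either group (25333 of 56605; a p-value was obtained for 25257), including 14 of the 16 probes of the members. Symbols came from unversioned RefSeq accessions (33767 probes) of a GRCm38.p6 annotation, and promoters from the same source, with 1 chromosome not used here. The scanner design names another build, so gene coordinates were not used. Probe sequences were not analysed here. The tested probe with the highest mean signal and 6 values represented a gene.

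Groups were compared with limma 3.58.1 (lmFit, eBayes, two-sided, Benjamini-Hochberg over all probes) in R 4.3.3 (package version of data.table: 1.17.8). The fit was checked on simulated data. Tables and plots used Python 3.11.15, pandas 2.3.3, numpy 2.4.6 and matplotlib 3.10.9. In each list, up to 3 genes well above background on all arrays were named, those with the largest difference among genes whose groups did not overlap. The members, lists, motifs and this rule were chosen with earlier results of these data known. Precision is limited by the number of arrays. The 16 alternatives are given in the closing section. The deviations from group means of samples sharing a number had correlations of 0.139, 0.127 and 0.0187, so the replicate numbers were not taken as pairs. Both samples numbered 1 were in slide column 1 and both numbered 2 in column 2, while those numbered 3 shared no column. With slide column as a random block, 1 of the alternatives, the consensus correlation was 0.349.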

Additional observations from a re-analysis of the deposited data

How the results depend on the processing

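The alternatives were other scalings, background correction, filters, models and the omission of each array in turn. Cd38, Nampt, Parp1, Sirt1, Sirt4, Sirt5 and Sirt7 kept their direction in all 16, and 0 of the 10 members passed an adjusted p of 0.05 by limma in any of them. The cause of each shift below was not tested.

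Signs turned for values near 0. Sirt2 was at -0.00545 after quantile normalization, at -0.0323 under a median shift and at -0.0759 with normexp. Sirt3 was at -0.120 under a median shift, -0.0174 with normexp and -0.0189 in the table without normalization, and between -0.0695 and 0.0675 when 1 array was left out. Sirt6 was at -0.101 under a median shift and -0.00237 without normalization, and between -0.0644 and 0.135 when 1 array was left out. The median of the members was -0.110 under a median shift, which moved the median of all genes to -0.10, and between -0.0670 and 0.0777 when 1 array was left out. Under it Sirt1 was at -0.362, Sirt4 at -0.291, Sirt5 at 0.151 and Sirt7 at -0.292, and Nmnat1 was at 0.18, Nudt5 at 0.0139 and Pdha1 at 0.178. With array weights Sirt1 was at -0.114, Sirt2 at 0.0268, Sirt5 at 0.143, Sirt6 at 0.113, Nampt at 0.353, Nr1h3 at 0.496 and Bst1 at 1.19. Normexp put Sirt1 at -0.145 and Sirt4 at -0.0622, and the mean over probes put Sirt4 at -0.0428, Nudt5 at 0.348 and Parp3 at -0.202.

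Members at an unadjusted p under 0.05 numbered 3, against 1 (Cd38) without normalization. They numbered 2 each with normexp and with no filter on dim probes, and 2 to 3 when 1 array was left out. Bst1 passed in the table without normalization (2.12, adjusted p 0.000108), which gave 1 called gene of NAD use, and in none of its other 14 alternatives. In that setting all members and named genes had the same SE, 0.428, where the SE of Bst1 was 0.87 as reported. The p-values and counts of that setting thus did not rest on the spread of each gene. The part of normalization in them was not tested.

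Over all probes 20 were called, against 11 each after quantile normalization, median shift and normexp, 456 without normalization, 9 with no filter, 4 with the filter on all 6 arrays, 754 with array weights, 138 with a random block for slide column and 8 for gene means. Leaving out 1 array gave 0 (without mPGC-1α replicate 3; at an unadjusted p under 0.05, limma had 1325 upward and 2010 downward) to 25. The replicate block gave 0 by limma (2388 upward and 2293 downward before adjustment), and under it Cd38 had an adjusted p of 0.175.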
